A study of Mus musculus with 9 samples.

Results

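P25 mSGc were compared with P10 mSGc, with the culture medium held as a block. Both are earlier than the passage that the study calls late. The comparison rests on 4 of the 9 libraries of the series, chosen by their labels alone: P25 in progenitor medium, P25 in differentiating medium, P10 in progenitor medium and P10 in differentiating medium, 1 library each. mSGc is a spontaneously immortalized epithelial line that grew out of the submandibular salivary glands of adult male C57BL/6 mice, with no introduced immortalizing gene, and all 4 libraries were made from total RNA of that line grown as monolayers. The labels name the media only as progenitor and differentiating. Here they were taken as the serum-free medium (with EGF, FGF, insulin and dexamethasone) and the serum-containing medium (with retinoic acid, triiodothyronine, hydrocortisone, EGF and insulin) that the study describes. The other libraries are P2 and P4 mSGc in progenitor medium, whose levels are given for orientation, and 3 libraries of IMOK, another mouse epithelial line, which were not part of the comparison. Because mSGc is 1 line with 1 library per passage and medium, the passage cannot be told apart from whatever else distinguished those cultures.

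Lines that escape senescence typically carry altered p53 or p16/Rb control and often gain or lose chromosomes. A gained or lost chromosome changes the transcripts of most of its genes a little and together, whereas a transcriptional program such as the cell cycle or the interferon response changes scattered genes by larger amounts. The interferon response is driven by transcription factors, STAT2 and IRF9 among them, that bind a short promoter element, and it can be switched on in cultured epithelium without virus. The salivary gland epithelium holds basal, myoepithelial, ductal (luminal) and acinar (secretory) cells, which keratins and secretory products tell apart.

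Total counts were 8891878 and 13186820 at P10 and 15438288 and 6237884 at P25, for progenitor and differentiating medium, so that the shallowest and the deepest of the 4 libraries are both P25. A level of 3 counts, which is what a count of 0 allows, corresponded to 0.194 to 0.481 CPM (counts scaled to the library total). Levels are given below as TPM (a level scaled to gene length and library total) in the order progenitor medium, differentiating medium. On that scale the median gene lay 0.20 and 0.16 lower on log2 at P25, whereas fold changes are on the log2 scale of normalised counts, where the median over the 11938 genes tested was -0.02. The epithelial label held in all 4 libraries: Krt5 lay between 2559 and 9386 TPM, Krt14 between 4728 and 9091 TPM, and Epcam between 307 and 478 TPM. The acinar products Bpifa2, Smgc and Smr3a were at 0 counts in all 4, and Bhlha15, an acinar transcription factor, reached at most 0.0673 TPM. Of other acinar markers the water channel Aqp5 was at 1.40 and 18.04 TPM at P10 and 12.7 and 20.9 TPM at P25, the chloride transporter Slc12a2 lay between 11.7 and 64.6 TPM, and the amylase gene Amy1 was at 1.55 and 3.38 TPM at P10 and at 0 counts at P25. Summed markers of other cells were low: the 10 fibroblast markers summed to 0.805 to 4.85 TPM, the 13 immune markers to 2.18 to 4.22 TPM with Ptprc at no more than 0.112 TPM, the 10 endothelial markers to 4.19 to 14.2 TPM, most of it Flt1 (3.67 to 13.6 TPM) and with Cdh5 at 0 counts in all 4, and the 7 adipocyte markers to 0.315 to 3.08 TPM. The 9 neural and glial markers summed to 36.1 and 84.5 TPM at P10 and 20.7 and 32.4 TPM at P25, most of it Erbb3, which epithelium also expresses.

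Of 11938 genes tested, 994 passed an adjusted p of 0.05 in edgeR's quasi-likelihood test (8.33%), 417 of them higher at P25 (3.49%) and 577 lower (4.83%). The decreases were deeper than the increases. Among the called genes the median log2 fold change was 1.42 for the higher and -2.14 for the lower, and 178 genes were at least 8-fold lower against 10 that were at least 8-fold higher in the fit. Of the 178, 32 had 3 or fewer counts over both P25 libraries (4 had none), where the fitted size depends on the prior count. Of the 994, 992 moved the same way in both media. The only residual of the fit is the disagreement between the media, so a call nearly requires this and the count is no separate support. Over all genes tested 71.0% moved the same way in both media, and the differences in progenitor medium and in differentiating medium, which share no library, correlated across 11938 genes with Pearson's r of 0.62 and Spearman's rho of 0.58, given as a description because genes are not independent replicates. The median gene differed by 0.48 between passages in progenitor medium and by 0.41 in differentiating medium, against 0.32 between the media at P10 and 0.32 between the media at P25. The fit has 1 residual degree of freedom, and an exact permutation test of 2 libraries against 2 cannot go below p = 0.333. With 3 libraries no medium term can be fitted beside the passage, and with all 4 libraries and no medium term 0 genes were called higher and 3 lower, so the effect of leaving out a library cannot be told apart from that of losing the term. Without the P25 library in progenitor medium or without that in differentiating medium edgeR called 0 genes (1277 and 1834 had an unadjusted p under 0.05; no other tool was run on 3 libraries), and this holds for every call named below. Without the P10 library in progenitor medium 36 genes were called higher and 365 lower, and without that in differentiating medium 187 and 219.

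**Figure D1:**
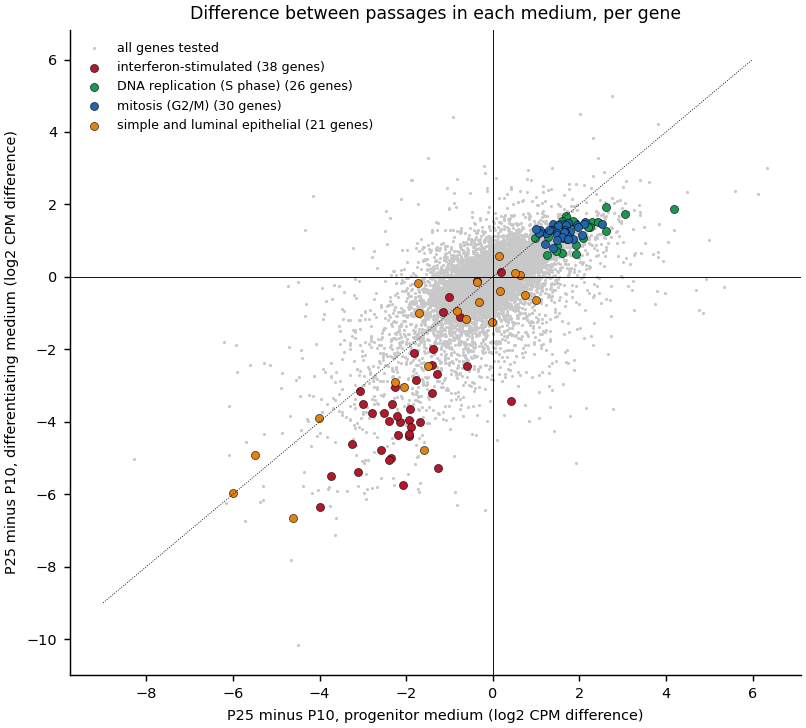
Difference between P25 and P10 for each of the 11938 genes tested, in progenitor medium (x axis) and in differentiating medium (y axis), as differences in log2 CPM. The dotted line marks equal differences. The 26 S phase and 30 G2/M genes lie in the upper right quadrant, and 36 of the 38 interferon-stimulated genes lie in the lower left one.

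Genes of cell division were higher at P25 in both media. All 30 tested genes of the G2/M list were called higher (100%, against 3.49% of all genes) and none lower. Their median log2 fold change was 1.43, with a range from 1.06 to 1.99. Of 26 genes of the S phase list 21 were called higher (80.8%) and none lower, with a median of 1.52. All 26 were higher in both media. Ccna2, the cyclin of S phase and G2, was at 47.8 and 86.8 TPM at P10 and at 183 and 222 TPM at P25 (log2 fold change 1.82, SE 0.24, adjusted p = 0.014, edgeR). Both P25 libraries lay above both P10 libraries. The mitotic motor Kif11 was at 21.0 and 45.8 TPM at P10 and 58.0 and 113 TPM at P25 (log2 fold change 1.56, SE 0.20). Aurka, a spindle pole kinase, went from 34.01 and 44.7 TPM to 98.6 and 114 TPM. Ccnb1, the mitotic cyclin, went from 62.1 and 110 TPM to 210 and 269 TPM. Of these genes P10 in progenitor medium was the lowest of the 4 libraries each time.

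Several of the called S phase genes encode proteins that license replication origins. Cdt1, which loads the replicative helicase onto origins, was at 37.1 and 34.7 TPM at P10 and at 104 and 99.998 TPM at P25 (log2 fold change 1.68, SE 0.21, adjusted p = 0.012). Its partner Cdc6 was at 1.25 and 6.05 TPM at P10 and at 21.1 and 20.3 TPM at P25 (log2 fold change 2.95, SE 0.55, adjusted p = 0.027), so the difference came to 4.19 in progenitor and 1.88 in differentiating medium. The helicase subunits Mcm2, Mcm3, Mcm4, Mcm5, Mcm6 and Mcm7 were all called higher, by 1.16 (Mcm7) to 2.40 (Mcm5) on the log2 scale. Mcm3 went from 39.8 and 72.4 TPM to 171 and 187 TPM. Rpa2, which coats single-stranded DNA, went from 20.3 and 28.5 TPM to 64.0 and 75.2 TPM. Dtl, which marks Cdt1 for destruction in S phase, went from 12.2 and 17.7 TPM to 32.6 and 46.7 TPM (log2 fold change 1.58, SE 0.21). The 5 that did not pass were Rrm1 (1.14, adjusted p = 0.056), E2f1 (1.03, 0.066), Tyms (1.27, 0.068), Slbp (0.93, 0.070) and Ccne1 (1.09, 0.073). In P2 and P4, which are in progenitor medium, Ccna2 lay at 69.3 and 120 TPM and Mcm3 at 61.1 and 111 TPM, between the P10 and P25 levels in the same medium. Without the P10 library in progenitor medium 3 G2/M and 5 S phase genes were called, without that in differentiating medium 21 and 18, and without either P25 library none.

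E2F factors drive many S phase genes through a short promoter element, and the stretch before the start of 2 called S phase genes is shown for that reason. The 150 bases before the annotated start (RefSeq, GRCm38.p6) hold TTTGGCGC or TTTCGCGC, read on both strands, in capitals. Dtl lies at chr1:191575545-191575694 and Mcm6 at chr1:128359706-128359855, both on the minus strand and printed 5′ to 3′ toward the gene.
Dtl: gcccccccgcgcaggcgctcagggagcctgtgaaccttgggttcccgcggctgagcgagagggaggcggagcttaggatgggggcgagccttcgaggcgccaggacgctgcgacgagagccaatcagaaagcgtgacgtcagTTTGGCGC
Mcm6: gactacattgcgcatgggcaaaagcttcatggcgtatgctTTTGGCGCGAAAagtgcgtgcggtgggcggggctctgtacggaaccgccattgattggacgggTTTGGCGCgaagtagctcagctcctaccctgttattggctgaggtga
Of the 21 called S phase genes 17 had an entry in the promoter table, and 5 of these 17 (29.4%) held 1 of these letters within 250 bases before the start, compared with 205 of 27025 gene symbols in the table (0.759%), 1 of 24 called G2/M genes and 0 of 22 called interferon-stimulated genes. A match is a description of the letters in that window. In Mcm6 a pair of matches on opposite strands overlap.

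Interferon-stimulated genes were lower at P25. Of 38 tested, 30 were called lower (78.9%, against 4.83% of all genes) and none higher, with a median log2 fold change of -2.95. The median difference was -1.94 in progenitor medium and -3.77 in differentiating medium (whether the media differ was not tested), and 36 of 38 were lower in both. Trim30a, an interferon-induced regulator of innate signalling with close relatives in the genome, had the lowest p of the list. It was at 8.19 and 16.3 TPM at P10 and at 0.374 and 0.0845 TPM at P25 (log2 fold change -5.05, SE 0.45, adjusted p = 0.0052). Ifit1, which binds foreign RNA caps, was at 53.9 and 59.0 TPM at P10 and at 4.86 and 2.05 TPM at P25 (-3.86, SE 0.39). Rtp4 went from 27.8 and 56.1 TPM to 2.84 and 4.25 TPM (-3.31, SE 0.33). Ifi44 went from 26.2 and 38.8 TPM to 1.62 and 0.657 TPM (-4.49, SE 0.46). In each of these the P25 levels lay far under the P10 levels in both media. Transcription factors of the pathway were called lower as well: Stat2 went from 39.9 and 43.7 TPM to 9.80 and 9.13 TPM (-1.96), and Irf9 from 50.7 and 54.9 TPM to 20.04 and 25.2 TPM (-1.06). Irf7, which amplifies the response, went from 43.5 and 83.3 TPM to 9.94 and 5.82 TPM (-2.73), and the ubiquitin-like Isg15 from 98.1 and 135 TPM to 17.4 and 14.3 TPM (-2.66). Among those that did not pass were Ifitm3, the most abundant, at 3081 and 2338 TPM at P10 and 2087 and 1933 TPM at P25 (-0.25, adjusted p = 0.54), and Ifit2 (0.15, adjusted p = 0.71). Many of these genes were already low at P4 relative to P2: Ifi44 was at 116 TPM at P2 and 5.71 TPM at P4, and Isg15 at 621 TPM and 103 TPM. Over the 4 passages in progenitor medium Ifi44 therefore did not fall steadily, since it was higher at P10 than at P4. Isg15 was lower at each later passage (621, 103, 98.1 and 17.4 TPM). The list held 28 called genes without the P10 library in progenitor medium, 12 without that in differentiating medium and none without either P25 library.

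These factors bind an interferon-stimulated response element, and the 150 bases before the start of 4 of these genes show where its letters TTTCNNTTTC lie (capitals, either strand). The stretches are from RefSeq, GRCm38.p6: Trim30a at chr7:104465194-104465343 (minus strand, 1 of 2 annotated starts), Ifit1 at chr19:34640739-34640888 (plus strand), Isg15 at chr4:156200819-156200968 (minus strand) and Ifi44 at chr3:151749911-151750060 (minus strand, no match).
Trim30a: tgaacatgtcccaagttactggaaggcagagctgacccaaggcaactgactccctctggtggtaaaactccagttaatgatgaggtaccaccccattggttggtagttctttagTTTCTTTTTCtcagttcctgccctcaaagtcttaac
Ifit1: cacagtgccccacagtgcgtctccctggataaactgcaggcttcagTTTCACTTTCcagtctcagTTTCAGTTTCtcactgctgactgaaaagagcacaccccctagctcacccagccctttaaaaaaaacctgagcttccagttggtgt
Isg15: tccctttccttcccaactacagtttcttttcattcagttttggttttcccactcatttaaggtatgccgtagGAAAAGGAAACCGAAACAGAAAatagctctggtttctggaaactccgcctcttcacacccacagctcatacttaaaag
Ifi44: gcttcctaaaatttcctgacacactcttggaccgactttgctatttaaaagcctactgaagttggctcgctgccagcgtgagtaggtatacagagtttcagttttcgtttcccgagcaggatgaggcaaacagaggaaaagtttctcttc
Of the 30 called genes 22 had an entry in the promoter table, and 14 of these 22 (63.6%) held TTTCNNTTTC within 250 bases before the start, compared with 936 of 27025 gene symbols (3.46%), 0 of 17 called S phase genes and 1 of 24 called G2/M genes. In Isg15 the 3 matches overlap on 1 strand.

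Antigen presentation and inflammatory genes moved in part. Of 16 tested genes of MHC class I presentation 5 were called lower (31.2%, against 4.83% of all genes) and none higher, with a median log2 fold change of -1.02. In the fits with 1 library left out 3 were called without the P10 library in progenitor medium and 0 without that in differentiating medium, and 2 were called with all 6 mSGc libraries. H2-K1, a class I heavy chain whose reads can be shared with its relatives, was at 250 and 436 TPM at P10 and at 130 and 141 TPM at P25 (-1.11, SE 0.25, adjusted p = 0.043), and Tap1, the peptide transporter, went from 57.6 and 68.8 TPM to 23.4 and 17.4 TPM (-1.46, SE 0.26). The light chain B2m went from 541 and 1165 TPM to 306 and 289 TPM without passing (-1.24, adjusted p = 0.064). Of 23 chemokines, cytokines and their targets 6 were called lower and 1 higher (26.1% and 4.35%, against 4.83% and 3.49% of all genes, median -0.27). Lcn2, an antimicrobial lipocalin, was at 258 and 334 TPM at P10 and at 10.6 and 6.72 TPM at P25 (-4.86, SE 0.34, adjusted p = 0.0027). The macrophage growth factor Csf1 went from 49.9 and 34.6 TPM to 10.9 and 9.51 TPM (-1.86), and the chemokine Ccl5 from 38.9 and 20.2 TPM to 2.22 and 2.40 TPM (-3.58). Ptgs2, the inducible prostaglandin synthase, was the 1 called higher, from 49.0 and 52.4 TPM to 94.8 and 161 TPM (1.46, SE 0.23). The count of lower genes was 2 without the P10 library in progenitor medium and 4 without that in differentiating medium.

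Trp53, the p53 gene, was called higher, and some p53 targets were called lower. Trp53 was at 113 and 114 TPM at P10 and at 184 and 182 TPM at P25 (log2 fold change 0.86, SE 0.20, adjusted p = 0.046), with the levels of the 2 media nearly equal at each passage. P2 and P4 lay at 189 and 157 TPM, so P10 was the lowest of the passages. Of 29 tested p53 targets 5 were called lower (17.2%, against 4.83% of all genes) and none higher, with a median of -0.59, and 22 of 29 were lower in both media. The growth factor Gdf15 went from 147 and 118 TPM to 19.2 and 15.9 TPM (-2.74, SE 0.24, adjusted p = 0.0052). Btg2, an antiproliferative gene, went from 214 and 230 TPM to 61.5 and 60.8 TPM (-1.68, SE 0.21). Trp53inp1 went from 182 and 154 TPM to 51.0 and 59.8 TPM (-1.43), Sesn2, a stress-induced inhibitor of growth signalling, from 71.2 and 34.1 TPM to 14.7 and 13.2 TPM (-1.66), and Bbc3 (Puma), which promotes apoptosis, from 40.4 and 35.4 TPM to 13.9 and 8.38 TPM (-1.62). The cell cycle inhibitor Cdkn1a went from 389 and 409 TPM to 207 and 177 TPM without passing (-0.89, SE 0.21, adjusted p = 0.054), and so did Mdm2, the p53 ubiquitin ligase, from 191 and 205 TPM to 92.6 and 119 TPM (-0.74, SE 0.20, adjusted p = 0.073). Among the targets that were close to level were Phlda3 (-0.08, adjusted p = 0.82) and Rps27l (0.17, adjusted p = 0.64). DESeq2 called 8 of the 29 lower. Without the P10 library in progenitor medium 2 were called, without that in differentiating medium 4, and without either P25 library none.

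Among 23 genes of senescence and immortalization 2 were called higher and 2 lower (8.70% each, against 3.49% and 4.83% of all genes). Without the P10 library in progenitor medium 0 were called higher and 1 lower, and without that in differentiating medium none in either direction. Cdkn2a, whose locus encodes p16 and Arf from overlapping transcripts that 1 count per gene cannot separate, was at 54.2 and 35.2 TPM at P10 and at 18.2 and 14.9 TPM at P25 (-1.24, SE 0.29, adjusted p = 0.047; DESeq2 gave 0.053). Its neighbour Cdkn2b (p15) went from 59.9 and 57.1 TPM to 20.4 and 18.5 TPM (-1.41, SE 0.25). P2 lay at 90.0 TPM for Cdkn2a and 92.5 TPM for Cdkn2b, above all later libraries. Lmnb1, a nuclear lamin that is lost in senescent cells, went from 53.1 and 80.2 TPM to 106 and 139 TPM (1.07, SE 0.20, adjusted p = 0.029). The other gene called higher was Trp53. The telomerase subunit Tert was at 5.33 and 5.31 TPM at P10 and 1.34 and 3.25 TPM at P25 and did not pass (-1.18, adjusted p = 0.14).

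**Figure D2:**
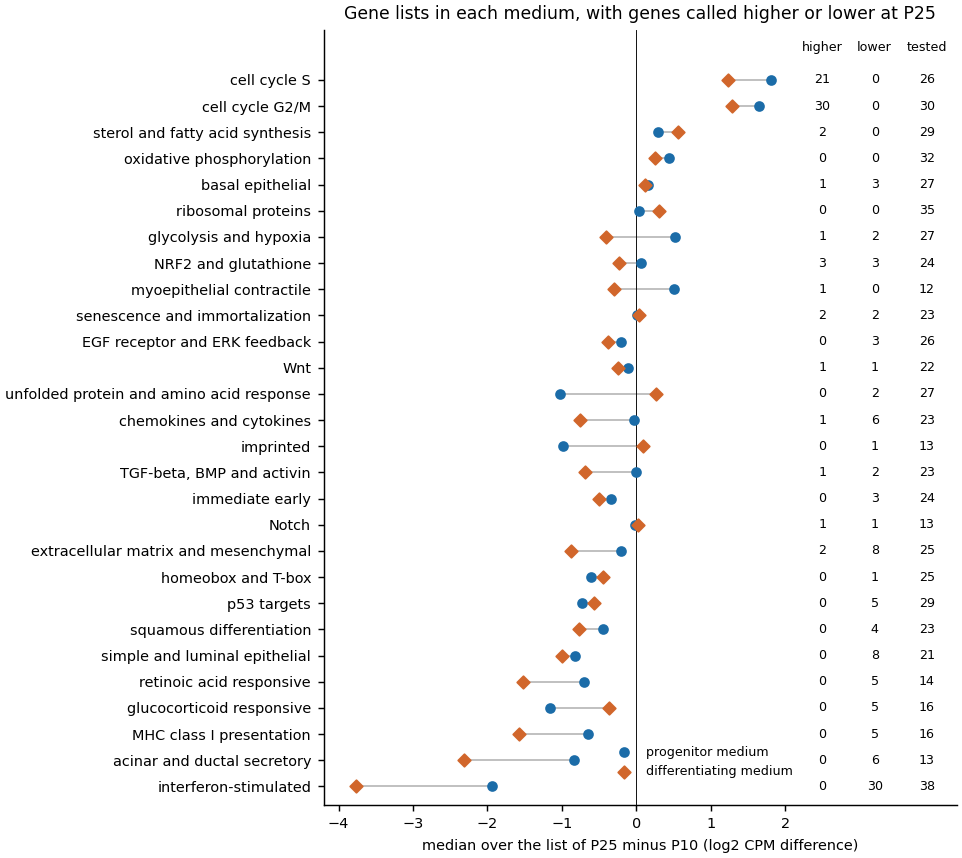
Median difference between P25 and P10 over each gene list in progenitor medium (circles) and in differentiating medium (diamonds), in log2 CPM, for lists with at least 10 genes tested. The columns at the right give the genes called higher, called lower and tested. Medians run from -3.77 (interferon-stimulated, differentiating medium) upward, and the cell cycle lists stand above all others in both media.

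The epithelial programs differed in how much of each moved. Of 21 tested markers of simple and luminal epithelium 8 were called lower (38.1%, against 4.83% of all genes) and none higher. The median log2 fold change of the 21 was -0.89. The called genes included tight junction claudins, luminal transcription factors and the keratin Krt19, while the keratin Krt8 did not pass. Ehf, an ETS factor of luminal epithelium, was at 24.8 and 146 TPM at P10 and at 0.268 and 2.03 TPM at P25 (-6.13, SE 0.27, adjusted p = 0.00063). Tfcp2l1, a factor of duct epithelium, went from 34.3 and 484 TPM to 1.81 and 29.1 TPM (-3.97, SE 0.25). Krt19 went from 18.2 and 287 TPM to 0.428 and 2.32 TPM (-6.24, SE 0.42). For these genes the level in differentiating medium was above that in progenitor medium at each passage, and P25 in differentiating medium was still under P10 in progenitor medium. Cldn3 had 243 counts over the 2 P10 libraries and 2 over the 2 P25 libraries, a CPM level 119-fold lower (95% counting interval 32.7 to 991), and had been at 247 TPM at P2 and 60.3 TPM at P4. Krt8, the main keratin of simple epithelium, was at 672 and 3743 TPM at P10 and 1172 and 2154 TPM at P25 and did not pass (0.17, SE 0.44, adjusted p = 0.83). The list held 7 called genes without the P10 library in progenitor medium, 3 without that in differentiating medium and none without either P25 library.

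Of 13 tested secretory genes of acini and ducts 6 were called lower (46.2%, against 4.83% of all genes) and none higher (median -1.95). At P10 each of the named genes was higher in differentiating than in progenitor medium. Ltf, encoding lactoferrin, was at 4.44 and 236 TPM at P10 and at 0.0429 and 0.813 TPM at P25, with 8 counts left over the 2 P25 libraries, and Wfdc18, a secreted protease inhibitor, went from 49.6 and 2337 TPM to 5.19 and 47.4 TPM (-4.47, SE 0.58, adjusted p = 0.013). The chloride channel subunit Gabrp went from 0.530 and 137 TPM to 0.215 and 11.7 TPM, so nearly all of its difference lay in differentiating medium. Slc4a4, a bicarbonate transporter of salivary ducts and acini, went from 15.6 and 53.1 TPM to 5.87 and 10.9 TPM (-1.68, SE 0.28), and the muscarinic receptor Chrm3 from 4.19 and 12.3 TPM to 0.223 and 3.02 TPM (-2.64, SE 0.54). The list held 6 called genes without the P10 library in progenitor medium and 1 without that in differentiating medium.

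Most basal genes did not pass, as was so for all genes tested, of which 8.33% were called. Of 27 tested basal genes 1 was called higher (3.70%, against 3.49% of all genes). The number called lower was 3 (11.1%, against 4.83%), and the median was 0.22. Krt5 was at 9214 and 3910 TPM at P10 and at 9386 and 2559 TPM at P25 (-0.12, SE 0.46, adjusted p = 0.89), with the 2 media further apart than the 2 passages. Krt14 was at 4728 and 5903 TPM at P10 and at 9091 and 5284 TPM at P25 (0.56, adjusted p = 0.47), and Trp63, the p63 gene of basal and myoepithelial cells, at 94.6 and 66.6 TPM and 71.3 and 93.8 TPM (0.22, adjusted p = 0.63). A p that misses the threshold does not show that these levels were equal. Sox15, a transcription factor, was the 1 called higher, from 5.54 and 17.4 TPM to 42.9 and 98.8 TPM (2.87, SE 0.29, adjusted p = 0.0077). Krt15, a keratin of basal cells, went from 547 and 331 TPM to 125 and 101 TPM (-1.76, SE 0.22), after 43.0 TPM at P2 and 66.4 TPM at P4, and was therefore highest at P10. The desmosomal cadherin Dsc3 went from 205 and 56.2 TPM to 20.8 and 22.2 TPM (-2.16), and Zfp750, a regulator of epidermal differentiation, from 22.1 and 57.3 TPM to 3.88 and 11.9 TPM (-2.21).

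Of 23 tested genes of squamous differentiation 4 were called lower (17.4%, against 4.83% of all genes) and none higher (median -0.68). Sprr1a, a cornified envelope precursor, went from 196 and 651 TPM to 19.95 and 160 TPM (-2.47, SE 0.33, adjusted p = 0.014), and Spink5, a protease inhibitor of the epidermis, from 350 and 283 TPM to 63.0 and 135 TPM (-1.60). The count was 2 without the P10 library in progenitor medium and 0 without that in differentiating medium. Of 12 myoepithelial genes 1 was called higher (8.33%, against 3.49% of all genes) and none lower. It was Tpm2, a tropomyosin, from 151 and 215 TPM to 380 and 387 TPM (1.26, SE 0.23). Acta2, which encodes smooth muscle actin and marks myoepithelial cells, was at 7.86 and 73.0 TPM at P10 and at 48.0 and 5.08 TPM at P25. It was higher at P25 in one medium and lower in the other, and did not pass (-0.32, SE 1.75, adjusted p = 0.93).

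Of 25 tested genes of extracellular matrix and mesenchyme 8 were called lower and 2 higher (32.0% and 8.0%, against 4.83% and 3.49% of all genes, median -0.46). Timp3, an inhibitor of matrix metalloproteinases, was at 287 and 227 TPM at P10 and at 0.729 and 6.19 TPM at P25 (-6.60, SE 0.83, adjusted p = 0.013), after 294 and 261 TPM at P2 and P4, so that the loss lay between P10 and P25. Postn, a matrix protein, went from 237 and 168 TPM to 23.2 and 4.93 TPM (-3.97, SE 0.44). Lox, which crosslinks collagen, had 400 counts over the P10 libraries and 1 over the P25 libraries (393-fold lower in CPM, 95% counting interval 70.1 to 15549). At P2 it had been at 190 TPM and at P4 at 5.41 TPM. Col6a1 went from 14.6 and 3.42 TPM to 0.592 and 0.240 TPM (-4.24). The 2 called higher were S100a4, from 13.1 and 55.7 TPM to 66.5 and 136 TPM (1.93), and Thbs2, from 0.404 and 0.320 TPM to 12.9 and 0.645 TPM, whose rise was largely in progenitor medium. Vim, encoding vimentin, was nearly level at 354 and 134 TPM at P10 and 311 and 132 TPM at P25 (0.07, adjusted p = 0.85).

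Some genes that respond to hormones of the media were lower at P25. Of 16 tested glucocorticoid-responsive genes 5 were called lower (31.2%, against 4.83% of all genes) and none higher (median -1.003). Of 14 retinoic acid-responsive genes 5 were called lower (35.7%) and none higher (median -0.94). Cebpd, a transcription factor that glucocorticoid induces, went from 154 and 55.1 TPM to 15.1 and 8.45 TPM (-2.88, SE 0.26, adjusted p = 0.0052). Glul, encoding glutamine synthetase, went from 61.4 and 118 TPM to 1.27 and 20.4 TPM (-3.73, SE 0.68). Retinoic acid is described for the differentiating medium only. Crabp1, which binds retinoic acid in the cytosol, was at 474 and 41.6 TPM at P10 and at 18.4 and 3.44 TPM at P25 (-4.18, SE 0.30, adjusted p = 0.0027). Tgm2, a transglutaminase that retinoic acid induces, went from 9.80 and 108 TPM to 1.66 and 16.1 TPM (-2.49, SE 0.23), and Aldh1a3, which makes retinoic acid, from 2.94 and 11.8 TPM to 0.450 and 0.0937 TPM (-3.78, SE 0.51). Lcn2 and Errfi1, listed as glucocorticoid responsive, stand in other lists as well. Without the P10 library in progenitor medium 3 glucocorticoid and 2 retinoic acid genes were called lower, and without that in differentiating medium 6 and 2.

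In the signalling lists few genes passed, beside 3.49% called higher and 4.83% called lower over all genes. The shares were 4.35% higher and 8.70% lower for TGF-beta, BMP and activin. They were 4.55% each way for Wnt and 7.69% each way for Notch. Lower shares were 11.5% for EGF receptor and ERK feedback, 12.5% for immediate early and 4.0% for homeobox and T-box. Each share rests on few genes. Of 23 tested genes of TGF-beta, BMP and activin 2 were called lower, the ligands Tgfb2 (-2.59, SE 0.42) and Tgfb3 (-1.82, SE 0.34), and 1 higher, the induced matrix gene Tgfbi (1.24, SE 0.26). Of 22 Wnt genes Wnt10a, a ligand, was higher, from 29.8 and 18.3 TPM to 71.9 and 44.2 TPM (1.44, SE 0.23), and the secreted Dkk3 lower (-3.45, SE 0.84). Of 13 Notch genes Lfng, which modifies the receptor, was higher (1.54, SE 0.27) and the receptor Notch3 lower (-0.84, SE 0.20). Of 26 genes of EGF receptor signalling and ERK feedback 3 were lower, the receptor Erbb3 (-1.41, SE 0.21) and the inhibitors Spry1 (-1.21) and Errfi1 (-1.04). Of 24 immediate early genes 3 were lower, Btg2, Klf4 (-1.67, SE 0.21) and Fosl2 (-0.96), whereas Egr1 was nearly level at 35.2 and 38.8 TPM and 32.0 and 39.9 TPM (0.12, adjusted p = 0.74). Of 25 homeobox, T-box and related developmental factors 1 was called, Foxc1, from 30.9 and 99.3 TPM to 10.2 and 23.5 TPM (-1.67, SE 0.23).

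Metabolic lists held few calls although some leaned one way. Over all genes 3.49% were called higher and 4.83% lower. The shares were 6.90% higher for sterol and fatty acid synthesis and 12.5% each way for NRF2 and glutathione. They were 3.70% higher and 7.41% lower for glycolysis and hypoxia. For the unfolded protein list 7.41% were lower and for the imprinted list 7.69%. Each share rests on few genes. None of 32 tested genes of oxidative phosphorylation was called by edgeR (7 at an unadjusted p under 0.05, 0 by DESeq2 and 0 by voom), with a median log2 fold change of 0.39 and 27 of 32 higher in both media. Ndufb8, a subunit of complex I, had the lowest p (0.72, adjusted p = 0.080). Of 29 genes of sterol and fatty acid synthesis 2 were called higher and none lower (median 0.46), and 23 were higher in both media. The called genes were Fdft1, encoding squalene synthase, from 98.2 and 112 TPM to 187 and 185 TPM (1.00, SE 0.20), and Fdps, which makes farnesyl diphosphate, from 375 and 381 TPM to 654 and 687 TPM (1.00, SE 0.21). None of 35 ribosomal protein genes was called by edgeR (2 at an unadjusted p under 0.05, 2 by DESeq2 and 1 by voom). Of 24 NRF2 and glutathione genes 3 were higher and 3 lower. The glutathione peroxidase Gpx2 went from 165 and 188 TPM to 385 and 482 TPM (1.46, SE 0.20), and the transferase Gsto1 from 1079 and 2412 TPM to 349 and 482 TPM (-1.80, SE 0.28). Of 27 genes of glycolysis and hypoxia 1 was higher and 2 lower, and Adm, encoding adrenomedullin, had 55 counts over the P10 libraries and 0 over the P25 libraries, at least 17.999-fold lower against a floor of 3 counts over the group. Of 27 genes of the unfolded protein and amino acid response 2 were lower, Sesn2 and Chac1 (-2.37, SE 0.53), which degrades glutathione. Of 13 imprinted genes 1 was called, Plagl1, a zinc finger factor, from 8.80 and 13.6 TPM to 0.201 and 1.39 TPM (-4.04, SE 0.53).

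The largest single changes at 10 TPM or more were decreases of genes that were well expressed at P10. Arg1, encoding arginase, shared the lowest adjusted p of the genes named here with Ltf. Arg1 was at 121 and 768 TPM at P10 and at 1.27 and 8.84 TPM at P25 (-6.32, SE 0.26, adjusted p = 0.00054, edgeR). At P2 it had been at 172 TPM and at P4 at 365 TPM. Pdpn, encoding podoplanin, a surface glycoprotein of basal and mesenchymal cells, went from 107 and 23.9 TPM to 1.20 and 1.62 TPM (-5.35, SE 0.37). Slc5a8, a monocarboxylate transporter, went from 19.1 and 186 TPM to 0.861 and 2.63 TPM (-5.16, SE 0.45). The glutathione transferase Gsta3, which has close copies in the genome, was at 29.7 and 20.2 TPM at P10 and at 0.406 TPM and 0 counts at P25. Gsta3 was under 3 TPM at P2 and P4 (2.48 and 1.84 TPM), so its level at P10 stood apart. Sectm1b had 420 counts over the P10 libraries and 2 over the P25 libraries (206-fold lower, 95% counting interval 56.7 to 1708), and P2 and P4 were at 1.71 and 1.10 TPM. The unnamed gene 4833423E24Rik went from 40.3 and 115 TPM to 0.698 and 1.70 TPM (-5.77, SE 0.33).

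**Figure D3:**
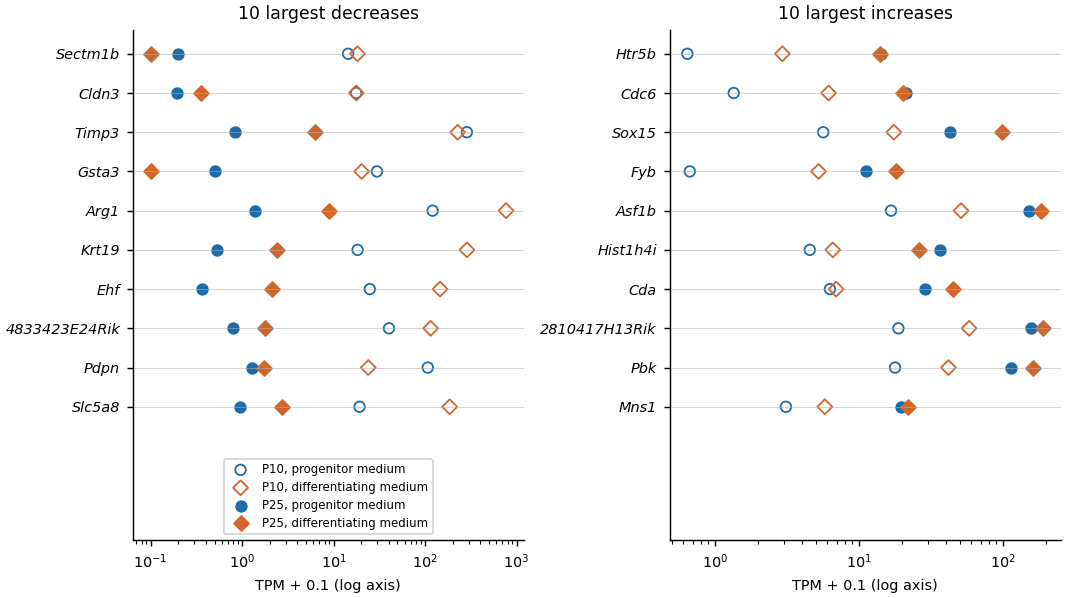
Level of the 10 genes with the largest decrease and the 10 with the largest increase among called genes with at least 10 TPM in 2 of the 4 libraries, as TPM + 0.1 on a log axis. Open symbols are P10 and filled symbols P25, with circles for progenitor and diamonds for differentiating medium, 1 library each. The decreases lie further apart than the increases, and P10 in progenitor medium is the lowest library for each increase.

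The largest increases were smaller, and some were of genes known from dividing cells. Asf1b, a histone chaperone of replicating chromatin, went from 16.6 and 51.0 TPM to 152 and 184 TPM (2.67, SE 0.36, adjusted p = 0.014). Pbk, a mitotic kinase, went from 17.7 and 41.7 TPM to 114 and 161 TPM (2.48, SE 0.27). 2810417H13Rik, also known as the PCNA-associated factor, went from 18.7 and 58.1 TPM to 156 and 189 TPM (2.54, SE 0.36). Hist1h4i, a histone H4 gene whose near-identical copies make its counts uncertain, went from 4.45 and 6.47 TPM to 36.4 and 26.1 TPM (2.65, SE 0.47). Cda, encoding cytidine deaminase, went from 6.18 and 6.84 TPM to 28.5 and 44.9 TPM (2.64, SE 0.37), and Htr5b, a serotonin receptor gene, from 0.542 and 2.84 TPM to 14.1 and 13.8 TPM (3.30, SE 0.57). Fyb, an adaptor known from blood cells, went from 0.569 and 5.14 TPM to 11.1 and 17.8 TPM (2.84, SE 0.57). Mns1, a protein of cilia and flagella, went from 3.01 and 5.69 TPM to 19.3 and 21.7 TPM (2.45, SE 0.36).

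Whole chromosomes shifted by smaller amounts than these programs. For a shift, the P25 minus P10 difference in log2(CPM + 1) was taken for genes averaging 5 CPM or more, and the median of the other autosomes was subtracted from the median of the chromosome. It has no replicate within a medium. Chromosomes 14, 10, 18 and 19 moved by at least 0.1 the same way in both media. Chromosome 14 (339 genes) was higher by 0.51 in progenitor and 0.35 in differentiating medium, and chromosome 10 (491 genes) lower, at -0.45 and -0.30. Chromosome 18 (259 genes) was at -0.45 and -0.20, and chromosome 19 (363 genes) at 0.11 and 0.27. Between the media of the same passage the shifts ran from -0.11 to 0.21 at P10, the highest on chromosome 14, and from -0.43 to 0.17 at P25. Chromosome 7 was the low end at P25: it was at 0.05 between passages in progenitor and -0.33 in differentiating medium, so only the P25 library in differentiating medium stood apart. Chromosome 11 was at 0.25 in progenitor and 0.04 in differentiating medium.

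**Figure D4:**
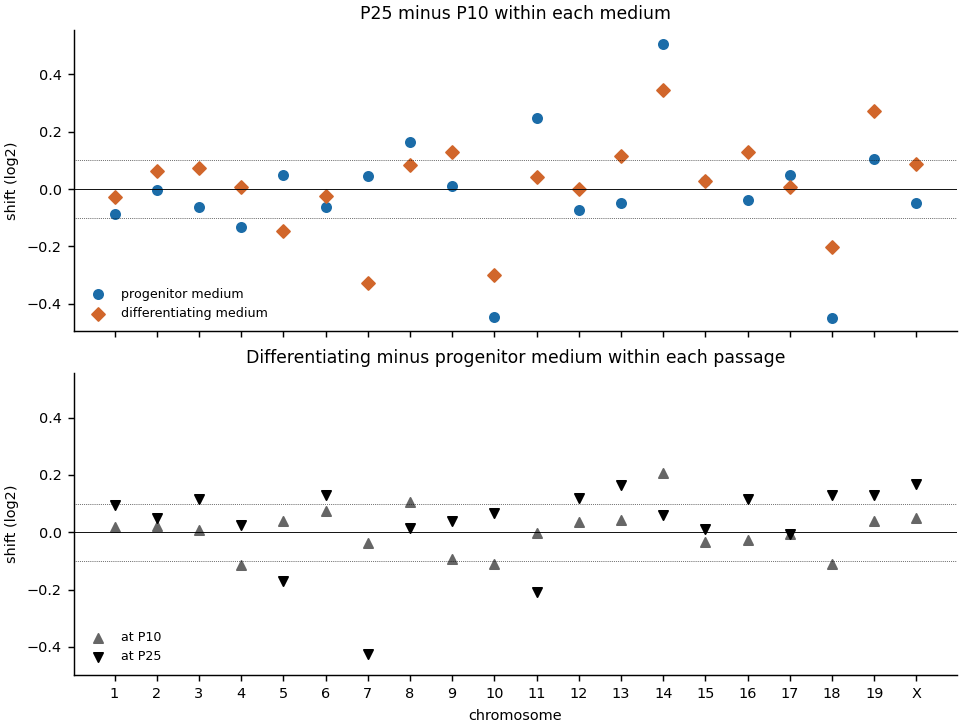
Shift of each chromosome (median log2 difference of its genes minus that of the other autosomal genes) between P25 and P10 in progenitor (circles) and differentiating medium (diamonds), top, and between the media at P10 and at P25 (triangles), bottom. Dotted lines mark 0.1. Chromosomes 10, 14 and 18 lie beyond 0.2 in the same direction in both media, and chromosome 7 only in differentiating medium.

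Most of these shifts ran along the chromosomes, but that of chromosome 19 in progenitor medium did not. Genes were taken in order in groups of at least 35. Chromosome 18 was negative in 7 of 7 groups in both media, and chromosome 10 in 14 of 14 in progenitor and 13 of 14 in differentiating medium. On chromosome 14, 8 of 9 groups were positive in both media, the exception being the first, at -0.03 and -0.11. Chromosome 19 was positive in 10 of 10 groups in differentiating medium and in 7 of 10 in progenitor medium. Its 3 stretches with equal numbers of genes were at 0.29, -0.03 and 0.04 in progenitor medium, so its shift there lay in the first. Chromosome 7 was negative in 20 of 21 groups in differentiating medium and in 6 of 21 in progenitor medium, and chromosome 11 was positive in 24 of 24 groups in progenitor medium. Chromosome 8 was split: of 3 stretches with equal numbers of genes, the first (positions 3150922 to 72736180, mm9) was at -0.37 in progenitor and -0.20 in differentiating medium, the second at 0.39 and 0.26 and the third at 0.40 and 0.21, so that its median over the whole chromosome (0.16 and 0.08) hid both. Of its 16 groups 8 were positive in progenitor and 10 in differentiating medium, and the signs were mixed past the first stretch as well, where groups 13 and 14 were negative in both media (-0.19 and -0.09, -0.12 and -0.08).

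**Figure D5:**
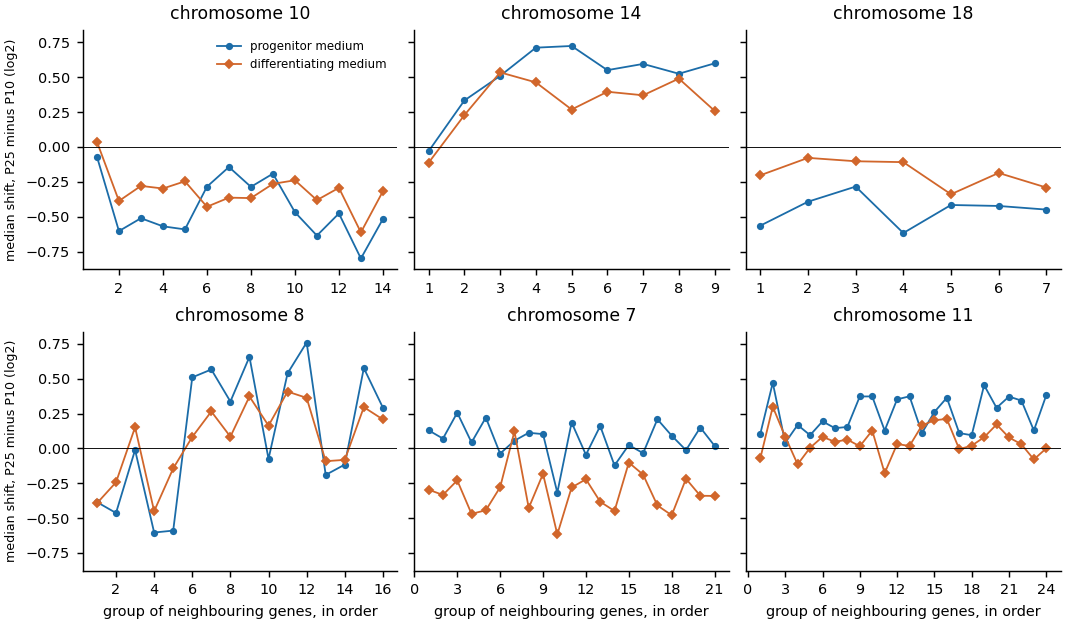
Median P25 minus P10 difference (log2, relative to the other autosomal genes) of groups of neighbouring genes in their order along chromosomes 10, 14, 18, 8, 7 and 11, in progenitor (circles) and differentiating medium (diamonds). Chromosome 18 is under 0 throughout in both media, chromosome 8 is mostly under 0 in its first 5 groups and mixed after them, and chromosome 7 is low in differentiating medium only.

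Set against the mean of P2 and P4, a reference chosen after these shifts were seen, the passages that stood apart were not the same for each chromosome. On chromosome 10 the P10 libraries were at 0.36 and 0.24 and the P25 libraries at -0.06 and -0.03, and on chromosome 14 the P10 libraries were at -0.54 and -0.29 and the P25 libraries at 0.01 and 0.07. For both chromosomes P25 lay at the level of P2 and P4, and P10 did not. On chromosome 18 it was P25 that differed, at -0.45 and -0.33 against 0.05 and -0.06 at P10. The first stretch of chromosome 8 was at 0.24 and 0.25 at P10 and -0.09 and 0.03 at P25, while its remainder differed already between P2 (-0.29) and P4 (0.29) and was at 0.35 and 0.34 at P25.

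On chromosomes 10 and 14 the calls of single genes leaned the way of the shift. On chromosome 10, 55 of 578 genes were called lower (9.52%, against 4.83% of all genes) and 7 higher, and on chromosome 14, 35 of 391 were called higher (8.95%, against 3.49%) and 5 lower. Of 311 tested genes on chromosome 18, 19 were called lower (6.11%, against 4.83%) and 4 higher. Of 426 on chromosome 19, which shifted upward, 17 were called higher (3.99%) and 20 lower (4.69%). Chromosome 8 held 51 higher and 41 lower of 668 (7.63% and 6.14%). The lowest p on chromosome 10 belonged to Arg1, followed by Moxd1, a monooxygenase of the endoplasmic reticulum lumen, from 209 and 109 TPM to 24.3 and 8.06 TPM (-3.24, SE 0.26), Enpp3 and Slc5a8. On chromosome 14 they were Pbk, Esco2, a cohesin acetyltransferase, from 7.35 and 19.8 TPM to 22.9 and 63.9 TPM (1.84, SE 0.23), the nuclear receptor corepressor Hr (1.67, SE 0.21) and the replication factor Wdhd1 (2.43, SE 0.33). On chromosome 18 they were Lox, Synpo (-3.35, SE 0.31), encoding the actin-binding synaptopodin, Dtna (-3.46, SE 0.37) and the growth factor Fgf1 (-3.89, SE 0.43). On chromosome 19 they were Ifit1 and Pgm5, both lower, and the replication-linked helicase Hells (1.59, SE 0.20) and Kif11, both higher.

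Called genes were spread over shifted and other chromosomes. The 4 chromosomes whose whole median shifted the same way in both media hold 14.3% of the genes tested and 16.3% of the called genes. On all others 832 genes were called (8.13% of those tested there). The 30 called interferon-stimulated genes lay on 15 chromosomes, 25 of them away from those 4. The 30 G2/M genes lay on 14 chromosomes with 26 away from those 4, and the 21 S phase genes on 12 with all 21 away. Chromosomes 4 and 8, with stretches that moved in opposite directions, count among the others. Chromosome 4 held 42 higher and 44 lower of 780 tested (5.38% and 5.64%). Chromosome 8 held 51 and 41 of 668 (7.63% and 6.14%). Over all genes the shares were 3.49% and 4.83%. The S phase gene Cdt1 lies on chromosome 8, in a group of neighbouring genes at 0.58 and 0.30. When each gene was centred on its chromosome, 34 interferon-stimulated genes, 25 S phase, 30 G2/M and 8 p53 target genes were called. Over all 11938 genes that fit called 622 higher and 848 lower, against 417 and 577 in the main fit, so calls rose in general. Centring takes 1 median per whole chromosome and library, so it leaves opposed stretches such as those of chromosomes 4 and 8 in place.

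Of the 4 tested genes of the Y chromosome 2 were called lower (over all genes 4.83% were). Kdm5d, a histone demethylase, was at 28.6 and 29.1 TPM at P10 and at 11.2 and 13.9 TPM at P25 (-1.04, SE 0.22, adjusted p = 0.037), and Uty, another, went from 29.7 and 31.5 TPM to 8.28 and 14.7 TPM (-1.30, SE 0.26, adjusted p = 0.032). The helicase Ddx3y went from 72.8 and 65.0 TPM to 25.8 and 40.9 TPM without passing (-0.91, SE 0.25, adjusted p = 0.074). The initiation factor gene Eif2s3y had 47 counts over the P10 libraries and 0 over the P25 libraries, at least 15.4-fold lower against a floor of 3 counts over the group, after 41.0 TPM at P2 and 4.92 TPM at P4. For the other 3 of these genes both P2 and P4 were lower than P10. P2 and P4 were at 14.5 and 13.3 TPM for Kdm5d, 18.1 and 7.88 TPM for Uty and 36.5 and 19.7 TPM for Ddx3y.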

How the data were processed

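RNA-seq was read from the deposited gene counts of 9 libraries, of which 4 (P10 and P25 mSGc in 2 media) enter the comparison. Per the labels' processing notes and the study's methods, the authors aligned reads to mm9 (TopHat2 2.1.1, Bowtie2 2.2.6) and deposited raw counts per gene (featureCounts 1.5.1), without normalization. The annotation, strand setting and handling of multiply mapped reads are not given in the sources used here, which leaves the counts of overlapping or near-identical genes uncertain. The tables hold 23366 entries, 27 with names turned into dates, and the gene lengths from which TPM was computed. DESeq2 1.12.4 is also named there, and no result of it was used.

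Counts were tested in R 4.3.3 with edgeR 4.0.16 (TMM, filterByExpr, quasi-likelihood test, medium and passage as terms, Benjamini-Hochberg over all 11938 genes, threshold 0.05), with DESeq2 1.42.0 and limma 3.58.1 (voom) as alternatives. The prior degrees of freedom were 5.67 and the biological coefficient of variation 0.227. SE is the absolute log2 fold change over the square root of F. Differences within a medium are log2 CPM differences (prior count 2) without a test. The medium serves as the pairing of the libraries; nothing says that they came from separate cultures, so p-values measure only the spread between these libraries. Tests were checked on simulated counts that held no medium effect and whose scatter was drawn from the dispersion fitted to these libraries. That check does not show how the tests behave with the differences between media seen here. Summaries used Python 3.11.15, pandas 2.3.3 and numpy 2.4.6.

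The comparison and the gene lists were chosen with earlier results of these data known. Named genes are the 10 largest changes per direction among called genes with at least 10 TPM in 2 libraries and the same direction in both media, up to 4 members of lowest p per list and per shifted chromosome, and a fixed set of p53, keratin and chromosome Y genes. Other members of these lists and E2F or interferon promoter examples were named after their values were seen. Some genes are not reported here. For genes with 3 or fewer counts over the P25 libraries the fold is that of pooled CPM, with an exact 95% binomial interval. Intervals and floors reflect counting error alone, because reads rather than molecules were counted. Promoter windows came from RefSeq (GRCm38.p6), matched by symbol, and no coordinate was moved between builds.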

Additional observations from a re-analysis of the deposited data

Results flagged for a closer look

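For 1 named gene and 5 chromosomes the signs differed between the 2 media, and in none of these was the difference between the media tested, since each passage has 1 library per medium. Acta2 was 2.78 higher at P25 in progenitor medium and 3.66 lower in differentiating medium on the log2 scale, a difference of -6.44. Chromosome 7 was at 0.05 in progenitor and -0.33 in differentiating medium (-0.37), and chromosome 5 at 0.05 and -0.15 (-0.19). Chromosome 13 was at -0.05 and 0.12 (0.16), chromosome 16 at -0.04 and 0.13 (0.17) and chromosome 4 at -0.13 and 0.01 (0.14). For each of the 5 chromosomes the smaller of the 2 shifts lay within 0.1 of 0. The median over chromosome 4 covers unlike parts. Of 3 stretches with equal numbers of genes, the first was at 0.19 in progenitor and 0.31 in differentiating medium. The second was at -0.31 and -0.13 and the third at -0.35 and -0.09. The group of 35 neighbouring genes that holds Cdkn2a and Cdkn2b (positions 86500003 to 103039033, mm9) was at -0.40 and -0.17.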

How the results depend on the processing

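The number of called genes was far lower in the fit without the medium term, which the fits with a library left out also lack. It was as low in the fit with all 9 libraries, which keeps that term, as in the fit without it. The counts of genes higher and lower at P25 were 515 and 655 with DESeq2, 536 and 695 with voom and 351 and 714 without TMM factors. They came to 317 and 461 with all 6 mSGc libraries and to 622 and 848 when centred on chromosomes. They were 157 and 285 without a low-count filter, 0 and 3 without the replicate block (medium left out, 2577 genes at an unadjusted p under 0.05) and 0 and 3 with all 9 libraries (1905 genes). Leaving out 1 library at a time gave 0 to 187 higher and 0 to 365 lower, each fit having 1 residual degree of freedom. Interferon-stimulated genes called lower numbered 18 without the filter and 18 with at least 10 counts in every library, 0 without the replicate block, 0 with all 9 libraries and 0 to 28 with a library left out. S phase genes called higher numbered 13 and G2/M genes 22 without the filter; without the replicate block and with all 9 libraries both were 0, and with a library left out S phase ran from 0 to 18 and G2/M from 0 to 21. The p53 targets called lower numbered 8 with DESeq2, 8 with at least 10 counts in every library, 8 when centred on chromosomes, 3 without the filter, 0 without the block, 0 with all 9 libraries and 0 to 4 with a library left out. Causes of these changes were not tested. Without the block Krt5 turned to 0.062 and Krt8 to -0.22. With a library left out, the log2 fold change ran from -1.28 to 0.91 for Krt5, -0.95 to 1.40 for Krt8, -0.092 to 0.55 for Trp63, -2.83 to 1.97 for Acta2, -7.91 to 3.38 for Gabrp, -1.40 to 0.61 for Flt1 and -0.71 to 0.53 for Cd68. All 200 alternative values of chromosome shifts (another CPM minimum, pseudocount or reference) lay within 0.07851 of the main value. Shifts of at least 0.1 kept their direction, and the sign of smaller ones was not checked. Depth limits the low genes, as 3 counts are 0.481 CPM in the shallowest library.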
